A study of Mus musculus with 36 samples.

Results

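The keratin genes Krt1, Krt10, Krt2, Krt77, Krt80, Krt4 and Krt13 were followed in murine keratinocytes with and without plakophilin 4. They were selected on earlier results of these same libraries, namely their responses to calcium and to culture time in each genotype, so those responses are given here as a description and are not tested. The 7 genes are 7 rows of the 55358 genes in the counts table, and all 7 were found in it by symbol. The 12 groups had 3 RNA-seq libraries each, 36 in all. WT cells were primary keratinocytes from newborn mice with intact Pkp4. PKP4-KO cells came from newborn mice homozygous for a germline Pkp4 allele that lacks exon 9, on a C57BL/6J background. Rescue cells were PKP4-KO cells that had received a lentivirus for an EGFP fusion of human PKP4 and had been selected with puromycin, a treatment that neither WT nor PKP4-KO cells received. Each genotype was grown for 24 h or for 72 h in low calcium medium (LCM) or in high calcium medium (HCM). The sample titles read HD for the 72 h libraries and LD for the 24 h libraries, and do not spell out these letters. Culture time and cell density cannot be told apart in this design. The number of pups or of separate cell lines behind each genotype is not given in the sources used here. The labels call the 3 libraries of a group biological replicates, and nothing says that they came from separate animals, so p-values measure only the spread between these libraries.
Keratins are the intermediate filament proteins of epithelial cells and assemble as pairs of a type I and a type II protein. Basal keratinocytes of the epidermis make the pair K5 and K14. Cells that leave the basal layer switch to the pair K1 (type II) and K10 (type I), and K2 and K77 are further type II keratins of suprabasal epidermal cells. K80 is a type II keratin of differentiating epithelia. K4 (type II) and K13 (type I) form the suprabasal pair of the lining of mouth and oesophagus rather than of the skin. Raising the calcium of the medium and letting cells become dense are the usual ways to start differentiation of keratinocytes in culture.
In the GRCm39 annotation, the type II genes Krt80, Krt2, Krt1, Krt77 and Krt4 lie on the reverse strand of chromosome 15, within 587.8 kb between 101245325 and 101833170. This interval holds 23 keratin genes. The type I genes Krt10 and Krt13 lie on the reverse strand of chromosome 11, within 736.3 kb between 99276072 and 100012392, among 14 keratin genes. Each of the type II genes has 9 exons in its canonical transcript, and each of the type I genes has 8. The 250 bases before the start of the canonical transcript are shown for the pair Krt4 and Krt13, because the levels of these partners are set against each other below. They were read 5′ to 3′ on the reverse strand of GRCm39, from chr15:101833171-101833420 for Krt4 and chr11:100012393-100012642 for Krt13. Capitals mark the match to the AP-1 motif TGANTCA.
Krt4: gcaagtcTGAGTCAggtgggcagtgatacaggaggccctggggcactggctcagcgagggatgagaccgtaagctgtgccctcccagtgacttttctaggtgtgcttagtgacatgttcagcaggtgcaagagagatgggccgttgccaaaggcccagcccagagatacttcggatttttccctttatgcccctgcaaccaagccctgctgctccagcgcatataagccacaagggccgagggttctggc
Krt13: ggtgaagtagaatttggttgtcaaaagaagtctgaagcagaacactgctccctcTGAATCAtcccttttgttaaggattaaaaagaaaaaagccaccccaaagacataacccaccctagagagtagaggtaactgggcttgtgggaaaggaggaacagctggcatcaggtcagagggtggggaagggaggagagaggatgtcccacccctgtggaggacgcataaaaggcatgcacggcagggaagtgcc
The longest run shared by Krt4 and Krt13, AAGTCTGA, has 8 bases and is present in 1.05% of all promoters. It is not marked as such above, and in Krt4 its end TGA is also the start of the AP-1 match in capitals. The AP-1 motif was matched in 2 of the 6 promoters searched, those of Krt4 (TGAGTCA, 243 bases before the start) and Krt13 (TGAATCA, 196 bases before it), against 6.19% of all promoters. The KLF motif CACCC was matched in 5 of the 6 promoters (all promoters 53.0%), the C/EBP motif TTGCNNAA in 3 (all promoters 9.37%) and the RBPJ motif TGGGAA in 2 (all promoters 22.8%), on both strands in each case. The matches describe letters and were not tested for binding.
The total counts per library lay between 13602728 and 22467187. Endogenous Pkp4 had 33.4 to 76.3 CPM in WT libraries, 6.4 to 14.1 in PKP4-KO libraries and 6.52 to 11.9 in Rescue libraries. GFP-PKP4 had 1902 to 15325 counts in Rescue libraries and 0 to 113 in the others. Levels are given as CPM, counts relative to library size after adjustment by edgeR's TMM factors, which correct for differences in RNA composition. The factors were 0.481 to 0.546 in PKP4-KO at 72 h HCM and 0.705 to 1.39 elsewhere, so the scaling raises the levels of that group. The 8 basal keratinocyte markers, Krt5, Krt14, Krt15, Trp63, Itga6, Itgb4, Col17a1 and Lamb3, were above 1 CPM in every group and summed to 23299 to 73013 CPM per library. Summed markers of other cell types reached at most 11.8 CPM for fibroblasts, 4.16 for immune cells, 6.86 for melanocytes, 5.46 for endothelium, 25.5 for Merkel cells and 1.20 for muscle. Replicate 3 of Rescue at 24 h LCM stood apart from its group, with 21.4 CPM of Krt1 against 2.32 and 2.61 in replicates 1 and 2 and with 28.5 CPM of Krt10 against 6.96 and 7.53. That library had 1902 counts on GFP-PKP4 against 5916 and 7038, and 3.01% of its counts on the ribosomal RNA gene Rn18s.rs5 against 1.32% and 1.51%. Such a share was not unusual for the series, with 5.35% in replicate 2 of WT at 24 h HCM. Values that leaving out replicate 3 of Rescue at 24 h LCM moved by over 1.5 times, or to the other sign or side of the threshold, are given with and without it.
Of the 7 genes, 5 passed the filter on low counts and entered the test of 15114 genes. Krt2 had 88 counts in all 36 libraries together and at most 20 in 1 library. Its counts were 11, 4 and 20 in the PKP4-KO libraries of 72 h HCM, 7, 3 and 6 in PKP4-KO at 72 h LCM and 7, 5 and 4 in WT at 72 h HCM, and each of the other groups had at most 3 counts per library. Krt77 had 25 counts in all, at most 7 of them in 1 library. At this depth, no difference of Krt77 between groups was detectable, and Krt2 was seen above a floor of 3 counts only at 72 h, which covers counting error only.
Krt1 spanned the widest range of the 5 tested genes over the 12 groups, from 0.722 ± 0.109 CPM in WT at 24 h LCM to 3752 ± 101 CPM in PKP4-KO at 72 h HCM (SD, n = 3 here and for all levels below). In WT, the libraries had 0.846, 0.642 and 0.677 CPM at 24 h LCM, 5.15, 8.55 and 6.73 at 24 h HCM, and after 72 h 6.72, 5.98 and 8.55 in LCM and 36.1, 39.7 and 43.3 in HCM. In PKP4-KO, they had 38.6, 19.2 and 13.8 at 24 h LCM, 143, 104 and 82.5 at 24 h HCM, and after 72 h 476, 435 and 386 in LCM and 3773, 3642 and 3841 in HCM. In Rescue, they had 2.32, 2.61 and 21.4 at 24 h LCM, 19.2, 20.3 and 11.8 at 24 h HCM, and after 72 h 3.99, 3.09 and 3.31 in LCM and 17.8, 18.1 and 17.5 in HCM. Every PKP4-KO library lay above every WT library of the same condition. The top 3 groups were all PKP4-KO (72 h HCM, then 72 h LCM, then 24 h HCM), which did not overlap each other, while the next 7 groups, from WT at 72 h HCM to WT at 24 h HCM, each overlapped their neighbour in the order. WT at 24 h LCM stood at the bottom, below every library of the other groups. In bulk RNA, more cells that express a gene and more RNA per cell cannot be told apart.
Krt10, the type I partner of Krt1, was also highest in PKP4-KO at 72 h HCM and had its lowest mean in WT at 24 h LCM. In WT, its libraries had 8.35, 9.51 and 11 CPM at 24 h LCM, 55.7, 57.2 and 40.2 at 24 h HCM, and after 72 h 38.0, 29.8 and 33.3 in LCM and 573, 604 and 424 in HCM. In PKP4-KO, they had 41.7, 25.6 and 22.0 at 24 h LCM, 135, 110.2 and 80.9 at 24 h HCM, and after 72 h 1299.7, 542 and 609 in LCM and 4705, 3986 and 4619.9 in HCM. In Rescue, they had 6.96, 7.53 and 28.5 at 24 h LCM, 120.0, 119 and 69.1 at 24 h HCM, and after 72 h 12.5, 14.2 and 11.4 in LCM and 504, 468 and 298 in HCM. Replicates 1 and 2 of Rescue at 24 h LCM lay below every WT library there. WT therefore had the lowest mean only with replicate 3 of that Rescue group included. The spread was wide in PKP4-KO at 72 h LCM, where replicate 1 stood well above the other two libraries. That group overlapped WT at 72 h HCM, the next in order, which in turn overlapped Rescue at 72 h HCM. Gm11940, an antisense gene within Krt10, is counted separately in the table, and because the strand setting of the counting is not stated, reads of both genes cannot be told apart with certainty.
Krt80 had a narrower range than the other 4 tested genes and stood highest in Rescue at 72 h HCM (743 ± 101 CPM). In WT, it had 69.4 ± 6.32 CPM at 24 h LCM, 336 ± 35.1 at 24 h HCM, and after 72 h 94.3 ± 2.69 in LCM and 434 ± 70.3 in HCM. In PKP4-KO, it had 25.8 ± 2.20, 29.8 ± 2.07, 155 ± 16.4 and 612 ± 160.4 CPM in the same order, so that both 24 h groups lay below all other groups without overlap. In Rescue, it had 61.8 ± 4.02, 224 ± 50.7, 371 ± 35.1 and 743 ± 101 CPM in that order. Krt80 overlaps the antisense genes Gm35853 and Mir1941, so its reads carry the same uncertainty.
Krt4, the type II keratin of the oral and oesophageal lining, was highest in Rescue. Its Rescue libraries had 10.9, 10.1 and 7.46 CPM at 24 h LCM, 129, 139 and 67.1 at 24 h HCM, and after 72 h 39.5, 38.7 and 44.9 in LCM and 113, 112 and 103 in HCM. The WT libraries had 0.317, 0.350 and 0.573 CPM at 24 h LCM, 8.45, 5.60 and 8.56 at 24 h HCM, and after 72 h 1.40, 1.23 and 0.864 in LCM and 26.9, 29.1 and 37.1 in HCM. The PKP4-KO libraries had 2.61, 1.1 and 1.40 CPM at 24 h LCM, 1.35, 1.97 and 0.960 at 24 h HCM, and after 72 h 6.04, 5.45 and 4.2 in LCM and 19.2, 15.8 and 19.4 in HCM. The lowest Rescue library of each condition lay above every WT and every PKP4-KO library of that condition. The WT counts at 24 h LCM were 6, 6 and 11, so the level there is imprecise.
Krt13, the type I partner of Krt4, followed another order and was highest in WT at 72 h HCM. Its WT libraries had 21.9, 28.0 and 19.2 CPM at 24 h LCM, 156, 169 and 111 at 24 h HCM, and after 72 h 42.5, 28.9 and 39.3 in LCM and 471, 488 and 748 in HCM. The PKP4-KO libraries had 12.6, 9.49 and 5.20 CPM at 24 h LCM, 12.1, 11.4 and 11.5 at 24 h HCM, and after 72 h 63.0, 70.5 and 50.4 in LCM and 224, 216 and 184 in HCM. The Rescue libraries had 48.1, 61.5 and 47.6 CPM at 24 h LCM, 139, 163 and 77.9 at 24 h HCM, and after 72 h 93.3, 117 and 116 in LCM and 64.6, 65.5 and 80.3 in HCM. Both PKP4-KO groups at 24 h formed the bottom of the order and overlapped each other. Rescue at 72 h HCM lay below Rescue at 72 h LCM without overlap, which is the opposite of the order in WT and PKP4-KO.

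**Figure D1:**
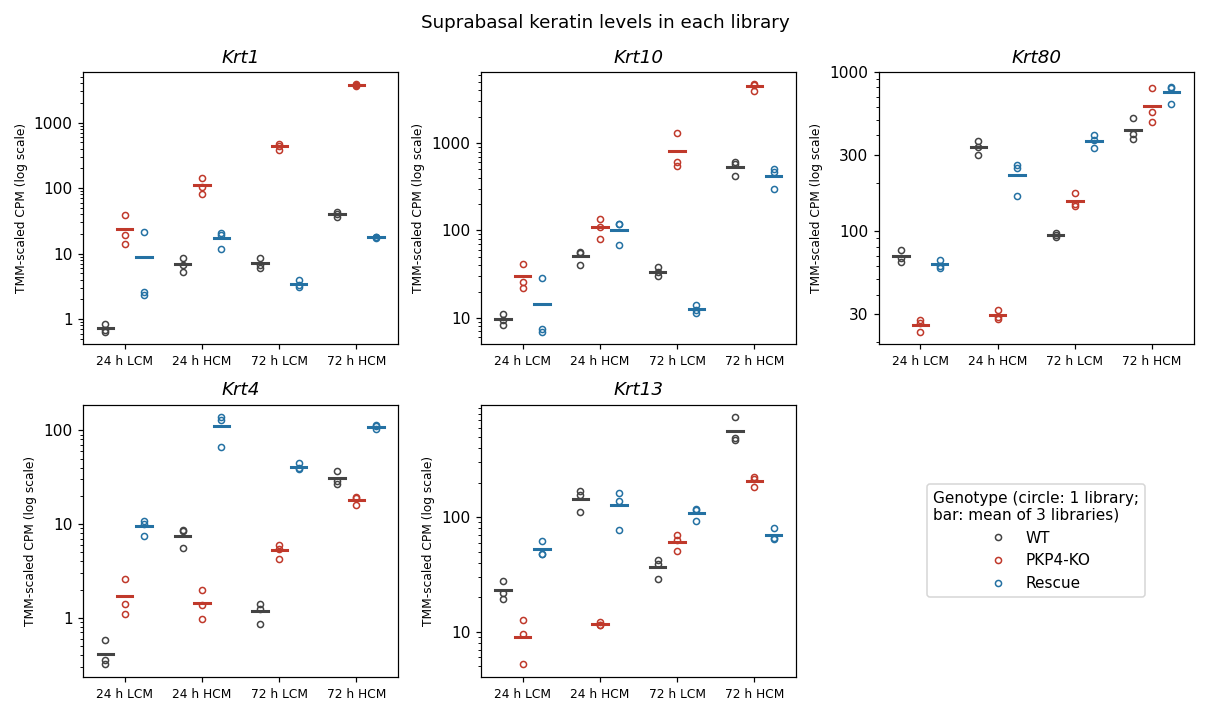
TMM-scaled CPM (log scale) of Krt1, Krt10, Krt80, Krt4 and Krt13 in each of the 36 libraries, with culture condition on the horizontal axis, circles for libraries and bars for group means of 3 libraries. PKP4-KO stands above WT for Krt1 in all 4 conditions, Rescue stands above both for Krt4, and 1 Rescue library at 24 h LCM stands apart for Krt1 and Krt10.

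Exposure to HCM went with higher levels of all 5 tested keratins in WT. The log2 fold changes of HCM against LCM at 24 h were 3.22 ± 0.58 for Krt1, 2.41 ± 0.40 for Krt10, 2.27 ± 0.17 for Krt80, 4.16 ± 0.35 for Krt4 and 2.66 ± 0.27 for Krt13. The ± values of log2 fold changes, here and below, are approximate standard errors, the absolute change divided by the square root of edgeR's F. At 72 h in WT, the log2 fold changes were 2.48 ± 0.49, 3.98 ± 0.42, 2.20 ± 0.17, 4.73 ± 0.31 and 3.95 ± 0.28 in the same order. In WT, the HCM libraries lay above the LCM libraries without overlap for 5 of 5 keratins at both times. Of all tested genes, 13.8% did so at 24 h and 18.9% at 72 h.
In PKP4-KO at 24 h, the responses to HCM were 2.21 ± 0.48 for Krt1 and 1.87 ± 0.39 for Krt10. Those of Krt80, Krt4 and Krt13 were 0.21 ± 0.17, -0.18 ± 0.31 and 0.37 ± 0.26. The HCM libraries lay above the LCM libraries without overlap for 3 of 5 keratins, Krt1, Krt10 and Krt80, against 7.03% of all tested genes. At 72 h, the values in PKP4-KO were 3.12 ± 0.50, 2.44 ± 0.39, 1.98 ± 0.17, 1.80 ± 0.27 and 1.76 ± 0.26 for Krt1, Krt10, Krt80, Krt4 and Krt13, without overlap for 5 of 5, against 21.8% of all tested genes. Without TMM factors they were 2.44, 1.75, 1.30, 1.12 and 1.09, where the median of all tested genes shifts by -0.69.
In Rescue at 24 h, the responses to HCM were 0.99 ± 0.48 for Krt1, 2.85 ± 0.41 for Krt10, 1.86 ± 0.17 for Krt80, 3.55 ± 0.27 for Krt4 and 1.27 ± 0.26 for Krt13. The libraries did not overlap for 4 of 5, all but Krt1, against 14.7% of all tested genes. Without replicate 3 of Rescue at 24 h LCM, Krt1 had a response of 2.79 and Krt10 one of 3.82. At 72 h, the values were 2.35 ± 0.50, 5.06 ± 0.45, 1.0 ± 0.17 and 1.42 ± 0.25 for the first 4 genes, higher without overlap for 4 of 5, against 21.9% of all tested genes. Krt13 had -0.63 ± 0.25, with every HCM library below every LCM library. Differences of these responses between genotypes or times were not tested.
Longer culture went with higher levels of all 5 keratins in WT and in PKP4-KO. In PKP4-KO in HCM, the log2 fold changes of 72 h against 24 h were 5.09 ± 0.55 for Krt1, 5.35 ± 0.45 for Krt10, 4.36 ± 0.19 for Krt80, 3.63 ± 0.30 for Krt4 and 4.15 ± 0.29 for Krt13. Without TMM factors, the same values were 4.01, 4.27, 3.30, 2.55 and 3.08, since this comparison shifts by -1.06 at the median of all tested genes without the scaling. In PKP4-KO in LCM, they were 4.18 ± 0.52, 4.78 ± 0.44, 2.59 ± 0.18, 1.64 ± 0.29 and 2.76 ± 0.27 in the same order. The 72 h libraries lay above the 24 h libraries without overlap for 5 of 5 keratins in both media, against 29.3% of all tested genes in HCM and 16.0% in LCM.
In WT in HCM, the time responses were 2.55 ± 0.50 for Krt1, 3.39 ± 0.41 for Krt10, 0.37 ± 0.16 for Krt80, 2.03 ± 0.26 for Krt4 and 1.97 ± 0.26 for Krt13. In LCM they were 3.28 ± 0.57, 1.81 ± 0.39, 0.44 ± 0.17, 1.47 ± 0.38 and 0.68 ± 0.26. The 72 h libraries lay above the 24 h libraries without overlap for 5 of 5 keratins in both media, against 14.3% of all tested genes in HCM and 17.6% in LCM. The smallest values were those of Krt80, at less than 0.5 in both media, and without TMM factors they were 0.10 in HCM and 0.22 in LCM.
In Rescue, the time responses were uneven. In HCM, Krt10 had 2.05 ± 0.39 and Krt80 1.73 ± 0.17, both higher at 72 h without overlap, which makes 2 of 5 keratins against 26.5% of all tested genes. Krt1 (0.06 ± 0.47) and Krt4 (-0.03 ± 0.24) were near 0, and Krt13 had -0.85 ± 0.25, with 1 library of 72 h above 1 library of 24 h. In LCM, Krt80 (2.58 ± 0.17), Krt4 (2.11 ± 0.26) and Krt13 (1.05 ± 0.26) were higher at 72 h without overlap, 3 of 5 keratins against 12.9% of all tested genes. Krt1 had -1.31 ± 0.50 and Krt10 -0.17 ± 0.38 in LCM. Without replicate 3 at 24 h LCM they were 0.49 and 0.80, and all 5 keratins were then higher at 72 h without overlap.

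**Figure D2:**
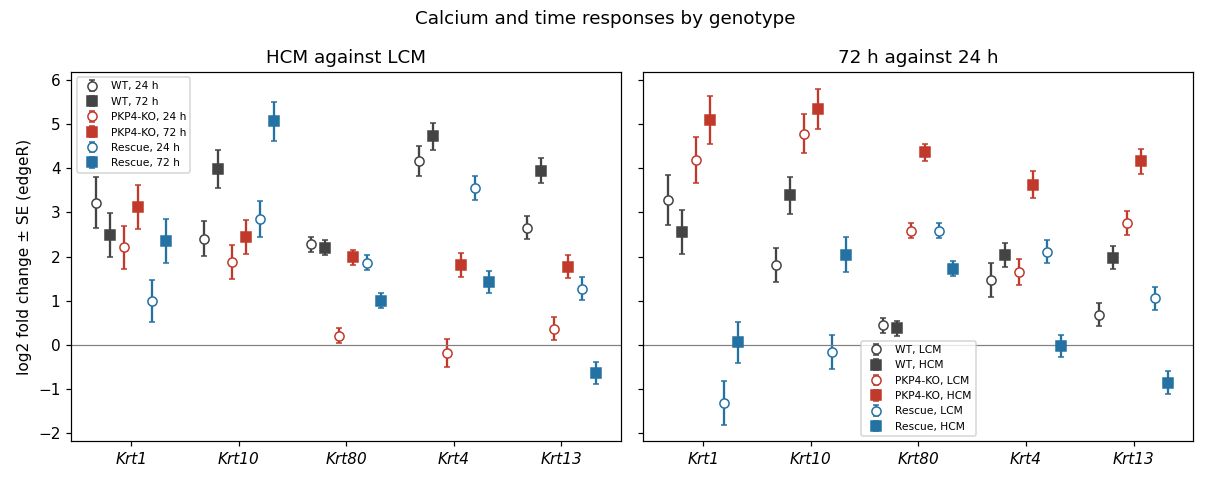
Log2 fold changes with approximate standard errors from the edgeR fit for HCM against LCM (left, open circles 24 h, filled squares 72 h) and for 72 h against 24 h (right, open circles LCM, filled squares HCM), by genotype. WT values lie above 0 throughout, Krt80, Krt4 and Krt13 stay near 0 in PKP4-KO after 24 h of calcium, and Krt13 falls below 0 in Rescue at 72 h.

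Genotypes were also compared as the mean over the 4 culture conditions, with edgeR's quasi-likelihood test and Benjamini-Hochberg adjustment over all 15114 tested genes. The genes had been chosen with results of these libraries known, so the p-values are no independent support. Krt1 rose in PKP4-KO against WT by a log2 fold change of 5.38 ± 0.28 (adjusted p = 6.6e-16), and Krt10 rose by 2.59 ± 0.20 (adjusted p = 3.23e-12). Krt80 fell, with -0.93 ± 0.08 (adjusted p = 8.17e-11), as did Krt13, with -1.43 ± 0.13 (adjusted p = 1.24e-10). Krt4 had 0.25 ± 0.15 (adjusted p = 0.145) and was not called, while without the 72 h HCM groups, an average chosen after seeing the data, it had 0.59 (adjusted p = 0.00746, edgeR). Thus 4 of 5 keratins were called, 2 in each direction, against 70.0% of all tested genes. Gm11940, the antisense gene within Krt10, had 2.69 (adjusted p = 5.66e-08).
Between Rescue and WT, Krt4 rose by 3.83 ± 0.15 (adjusted p = 2.2e-18), and Krt80 rose by 0.50 ± 0.08 (adjusted p = 9.24e-06). Krt1 was called higher, with 0.68 ± 0.25 (adjusted p = 0.0256), but without replicate 3 of Rescue at 24 h LCM it had 0.23 (adjusted p = 0.194, edgeR). Krt10 (-0.04, adjusted p = 0.887) and Krt13 (-0.12, adjusted p = 0.473) were not called. Of the 5 keratins, 3 were called, all higher in Rescue, against 49.2% of all tested genes. Averaged without the 72 h HCM groups, Krt13 had 0.85 (adjusted p = 2.22e-05, edgeR) and was called higher.
Between Rescue and PKP4-KO, Krt1 fell, with -4.70 ± 0.27, and Krt10 fell, with -2.64 ± 0.20 (adjusted p = 5.47e-15 and 2.58e-12). Krt4 (3.58 ± 0.14, adjusted p = 1.47e-18), Krt80 (1.43 ± 0.08, adjusted p = 9.16e-15) and Krt13 (1.31 ± 0.13, adjusted p = 7.01e-10) rose. All 5 of 5 were called, against 71.0% of all tested genes. This comparison and those with WT share libraries, so they do not count as separate evidence.
Within single conditions, Krt1 and Krt10 were called higher in PKP4-KO than in WT in all 4. The groups compared also form the calcium and time responses on which the genes were chosen. The p-values of single conditions, here and for Rescue below, are therefore no independent support. The log2 fold changes of Krt1 were 5.03 ± 0.59 at 24 h LCM, 4.02 ± 0.53 at 24 h HCM, and after 72 h 5.93 ± 0.57 in LCM and 6.56 ± 0.59 in HCM, with adjusted p-values from 3.23e-07 downwards. Those of Krt10 were 1.63 ± 0.39 (adjusted p = 0.00144), 1.09 ± 0.38 (adjusted p = 0.0211), 4.60 ± 0.44 (adjusted p = 1.21e-09) and 3.06 ± 0.41 (adjusted p = 4.64e-07) in the same order. At 24 h HCM, Krt10 had 0.90 (adjusted p = 0.0922, edgeR) without replicate 1 of PKP4-KO and 0.95 (adjusted p = 0.0893, edgeR) without replicate 3 of WT.
Krt4, Krt13 and Krt80 changed in different directions from one condition to another in PKP4-KO. Krt4 was lower in HCM, with -2.36 ± 0.29 at 24 h (adjusted p = 1.16e-07) and -0.77 ± 0.26 at 72 h (adjusted p = 0.0134), and higher in LCM, with 1.98 ± 0.38 at 24 h (adjusted p = 0.000103) and 2.16 ± 0.30 at 72 h (adjusted p = 1.09e-06). The call at 72 h HCM was lost without replicate 2 of PKP4-KO (-0.69, adjusted p = 0.0585, edgeR) and without replicate 3 of WT (-0.63, adjusted p = 0.0548, edgeR). Krt13 was lower at 24 h LCM (-1.35 ± 0.26, adjusted p = 0.000164), at 24 h HCM (-3.63 ± 0.28, adjusted p = 1.62e-11) and at 72 h HCM (-1.45 ± 0.26, adjusted p = 3.45e-05). At 72 h LCM it was called higher, with 0.73 ± 0.26 (adjusted p = 0.0213), a call lost without TMM factors (0.34, adjusted p = 0.206, edgeR) and in 3 of the 6 fits that each left out 1 library (0.58 to 0.71, adjusted p = 0.118, 0.0878 and 0.0503, edgeR).
Krt80 fell at 24 h, with -1.43 ± 0.17 in LCM (adjusted p = 8.72e-08) and -3.49 ± 0.18 in HCM (adjusted p = 4.41e-15). At 72 h it was called higher, with 0.72 ± 0.17 in LCM (adjusted p = 0.00086) and 0.49 ± 0.16 in HCM (adjusted p = 0.0137). The direction at 72 h HCM depended on the scaling. Without TMM factors, PKP4-KO had 316 ± 86.0 CPM against 376 ± 22.1 in WT, and the log2 fold change was -0.25 (adjusted p = 0.225, edgeR), where the median of all tested genes shifts by -0.76. The call was also lost without replicate 1 of PKP4-KO (0.26), without replicate 1 of WT (0.40) or without replicate 2 of WT (0.45), and the adjusted p then was 0.203, 0.083 and 0.0581 (edgeR). It was lost as well in the fit of only these groups (0.52, adjusted p = 0.0798, edgeR). At 72 h LCM, it was lost without TMM factors (0.32, adjusted p = 0.145, edgeR).
Counting both directions, 5 of 5 keratins were called in PKP4-KO against WT in each condition. The share of all tested genes called was 40.2% at 24 h LCM, 42.8% at 24 h HCM, and after 72 h 45.1% in LCM and 51.8% in HCM. Without TMM factors, 3 of 5 were called at 72 h LCM, and 2 were called higher and 2 lower at 72 h HCM. When 1 library was left out, the number called ranged from 4 to 5 at 24 h HCM and at 72 h HCM.
Rescue and WT were compared at each condition in the same way, against the same WT libraries. Krt4 rose in all 4 conditions, by 4.49 ± 0.34 at 24 h LCM, 3.88 ± 0.28 at 24 h HCM, and after 72 h 5.13 ± 0.31 in LCM and 1.82 ± 0.25 in HCM (adjusted p = 7.98e-11, 3.3e-11, 3.19e-13 and 2.89e-06). Krt13 rose in LCM, by 1.19 ± 0.26 at 24 h (adjusted p = 0.00096) and 1.56 ± 0.26 at 72 h (adjusted p = 2.32e-05), and fell at 72 h HCM, with -3.02 ± 0.27 (adjusted p = 1.85e-09), while at 24 h HCM it had -0.20 ± 0.25 (adjusted p = 0.653). Krt80 rose at 72 h, by 1.97 ± 0.17 in LCM (adjusted p = 3.4e-10) and 0.78 ± 0.17 in HCM (adjusted p = 0.000586). At 24 h HCM it was called lower, with -0.58 ± 0.16 (adjusted p = 0.01), a call lost without TMM factors (-0.47, adjusted p = 0.0653, edgeR), with only the groups compared (-0.59, adjusted p = 0.0733), without replicate 3 of Rescue (-0.40, adjusted p = 0.0968) and without replicate 1 of WT (-0.50, adjusted p = 0.0517). At 24 h LCM it had -0.17 ± 0.17 (adjusted p = 0.518).
Krt1 was called higher in Rescue than in WT at 24 h LCM (3.57 ± 0.58, adjusted p = 2.83e-05; 1.76 and 0.000453 without replicate 3 of Rescue, edgeR) and at 24 h HCM (1.33 ± 0.48, adjusted p = 0.0452). The call at 24 h HCM was lost in 5 of the 6 fits that each left out 1 library (1.17 to 1.53). At 72 h it had -1.02 ± 0.49 in LCM (adjusted p = 0.12) and -1.15 ± 0.47 in HCM (adjusted p = 0.0554) and was not called. It was called lower at 72 h HCM by DESeq2 (-1.17, adjusted p = 0.0349), without the filter and in the fit of only the groups compared (edgeR, adjusted p = 0.0359 and 0.000939), and the last of these also called it lower at 72 h LCM (adjusted p = 0.0154). Krt10 was called at 72 h LCM, where it was lower (-1.41 ± 0.39, adjusted p = 0.00557). It had 0.57 at 24 h LCM, 1.01 at 24 h HCM (adjusted p = 0.0546) and -0.33 at 72 h HCM, and the value at 24 h LCM was -0.41 without replicate 3 of Rescue. At 24 h HCM, Krt10 was called higher by DESeq2 (adjusted p = 0.0357) and by edgeR without TMM factors, without the filter, with only the groups compared and without replicate 3 of Rescue (adjusted p = 0.0302, 0.0382, 0.0286 and 0.0335). The number of keratins called in either direction was 3 of 5 at 24 h LCM, 3 at 24 h HCM, and after 72 h 4 in LCM and 3 in HCM. The share of all tested genes called was 24.8%, 23.2%, 32.4% and 36.2% in that order. Without TMM factors, the 3 keratins called at 24 h HCM were all higher in Rescue, against 2 higher and 1 lower with them.

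**Figure D3:**
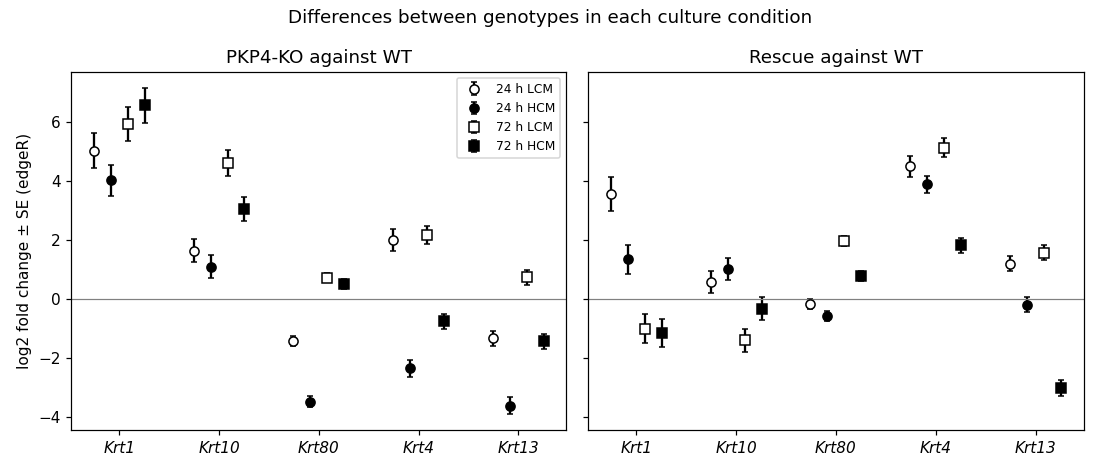
Log2 fold changes with approximate standard errors from the edgeR fit of PKP4-KO (left) and Rescue (right) against WT in each culture condition (circles 24 h, squares 72 h, open LCM, filled HCM). In PKP4-KO, Krt1 and Krt10 lie above 0 in all 4 conditions and Krt4 lies below 0 in HCM and above it in LCM, while in Rescue Krt4 lies above 0 in all 4.

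Because K1 and K10, and K4 and K13, assemble with each other, the ratio of the type II to the type I transcript was taken per library from counts per kilobase of gene length, which needs no scaling between libraries. The Krt1 to Krt10 ratio in PKP4-KO was 0.367 ± 0.0718 at 24 h LCM, 0.483 ± 0.0283 at 24 h HCM, and after 72 h 0.288 ± 0.105 in LCM and 0.407 ± 0.0277 in HCM. In WT it was 0.0368 ± 0.0102, 0.0653 ± 0.0187, 0.101 ± 0.0197 and 0.0369 ± 0.0105 in the same order, and in Rescue 0.228 ± 0.113, 0.0802 ± 0.00303, 0.132 ± 0.0253 and 0.0212 ± 0.00604. The lowest PKP4-KO library lay above the highest WT library in each condition, and in every library Krt10 was the more abundant of the pair. The length of Krt1 in the table, 4415 bp, is that of all its annotated exons, while its longest coding transcript has 2455 bp, so the ratios would be higher with the latter by the same factor in all groups.
The Krt4 to Krt13 ratio was highest in Rescue in HCM, with 0.751 ± 0.0349 at 24 h and 1.35 ± 0.224 at 72 h. The WT ratios in HCM were 0.0468 ± 0.0187 and 0.0473 ± 0.00443, and those of PKP4-KO 0.104 ± 0.0388 and 0.0752 ± 0.0138. In LCM, the ratio was 0.156 ± 0.0326 at 24 h and 0.324 ± 0.0405 at 72 h in Rescue, 0.0162 ± 0.00809 and 0.0277 ± 0.00876 in WT, and 0.169 ± 0.0660 and 0.0730 ± 0.00808 in PKP4-KO. Rescue at 72 h HCM was the only one of the 12 groups in which Krt4 exceeded Krt13. The ratio of Krt10 to Krt13, both type I, was 18.5 ± 2.88 in PKP4-KO at 72 h HCM, 5.36 ± 1.89 in Rescue and 0.867 ± 0.328 in WT. These ratios were not tested.

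**Figure D4:**
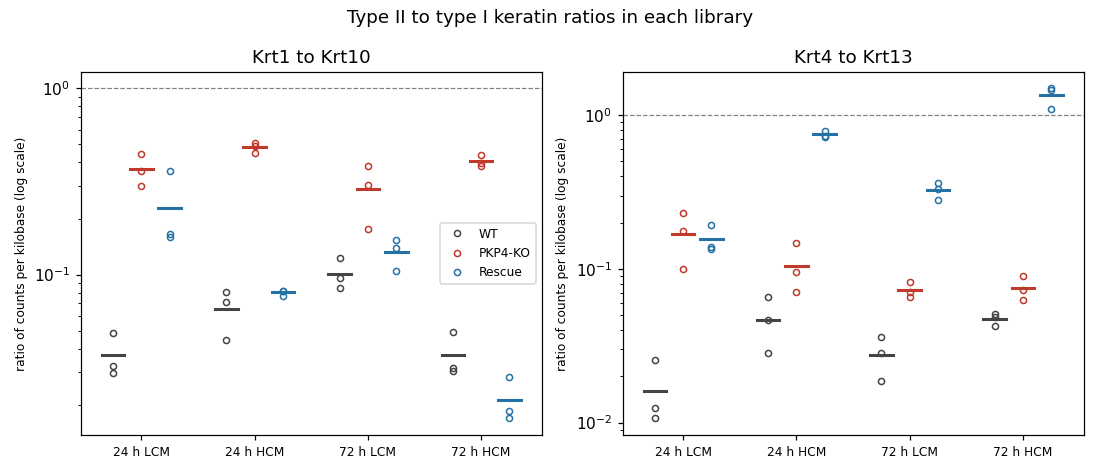
Ratios of counts per kilobase (log scale) of Krt1 to Krt10 and of Krt4 to Krt13 in each library by culture condition, with circles for libraries, bars for means of 3 libraries and a dashed line at 1. PKP4-KO stands above WT for Krt1 to Krt10 in each condition, and Rescue at 72 h HCM is above 1 for Krt4 to Krt13.

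Suprabasal keratins were a small part of the keratin RNA of these cells. Per kilobase of gene length, the 7 genes together made up 0.0853% ± 0.00283 of all keratin reads in WT at 24 h LCM, 0.339% ± 0.0671 at 24 h HCM, and after 72 h 0.106% ± 0.00194 in LCM and 1.15% ± 0.0310 in HCM. In PKP4-KO the shares were 0.0784% ± 0.0174, 0.235% ± 0.0299, 0.859% ± 0.253 and 3.36% ± 0.178, and in Rescue 0.153% ± 0.00764, 0.469% ± 0.10, 0.335% ± 0.0181 and 1.48% ± 0.226. The basal and stress keratins Krt5, Krt14, Krt15, Krt6a, Krt6b, Krt16 and Krt17 held 96.5% to 99.8% of it, as group means. At 72 h HCM, Krt10 had 2099 ± 186 CPM per kilobase in PKP4-KO and Krt1 849.8 ± 22.9, followed by Krt13 with 114 ± 11.6, Krt80 with 95.7 ± 25.1 and Krt4 with 8.51 ± 0.937. In WT the means were, from high to low, those of Krt13 (313 ± 85.1), Krt10 (252 ± 45.5), Krt80 (67.9 ± 11), Krt4 (14.6 ± 2.53) and Krt1 (8.99 ± 0.814), and in Rescue Krt10 (200.4 ± 52.0), Krt80 (116 ± 15.8), Krt4 (51.3 ± 2.71), Krt13 (38.5 ± 4.82) and Krt1 (4.04 ± 0.0728). Krt10 was above Krt13 in 2 of the 3 WT libraries, with ratios of 1.05, 1.06 and 0.488. These orders hold for the lengths in the table. With the longest coding transcripts (3919 bp in place of 6393 bp for Krt80), PKP4-KO had 156 CPM per kilobase of Krt80, above the 126 of Krt13, and 1528 of Krt1, and the order in WT and Rescue was not computed with these lengths.
Among the other keratins, 14 of 26 tested genes were called higher and 8 lower in PKP4-KO against WT over the 4 conditions, where 70.0% of all tested genes were called. Their median log2 fold change was 0.65 beside -0.02 over all tested genes. Krt15, a type I keratin of basal cells and hair follicle stem cells, rose by 4.58 (adjusted p = 4.09e-21, edgeR), from 61.1 ± 13.7 CPM in WT at 72 h LCM to 2057 ± 610.2 in PKP4-KO. Krt25, a type I keratin of the hair follicle and a neighbour of Krt10, had 16.5 ± 4.58 CPM in PKP4-KO at 72 h HCM and 0.0684 ± 0.118 in WT, and Krt24 had 9.02 ± 1.34 CPM there and no reads in WT. Of the 7 basal and stress keratins, 3 were called higher and 2 lower (3 and 4 without TMM factors), and of the 6 simple-epithelium keratins, 1 was called higher and 4 lower. The simple-epithelium keratins Krt20 and Krt19 averaged 0.0315 and 0.0752 CPM in PKP4-KO over the 4 conditions against 1.99 and 2.83 in WT. In Rescue against WT over the 4 conditions, where 49.2% of all tested genes were called, 11 of 26 tested genes were called higher and 4 lower. Krt7, a type II keratin of simple epithelia, had 5.06 (adjusted p = 4.21e-22, edgeR). At 72 h HCM alone, it had 6.92 ± 0.875 CPM in WT and 347 ± 19.1 in Rescue. Over the 4 conditions, 5 of the 6 simple-epithelium keratins were called higher in Rescue and 0 lower by edgeR. Of the 7 basal and stress keratins, 1 was higher and 3 were lower (2 and 3 without TMM factors).
Of the 43 genes that lie within 5 places of one of the 7 keratins in the annotation, 21 were tested. In PKP4-KO against WT, 12 were called higher and 5 lower (all tested genes 70.0% called), with a median log2 fold change of 0.77. Krt25 and Krt20, which lie 4 places from Krt10 on opposite sides, were called higher and lower, respectively. In Rescue against WT, 10 neighbours were called higher and 2 lower (all tested genes 49.2% called). Many of the neighbours are keratins that also count among the other keratins above, so the counts of these lists overlap.
Of the spinous and granular differentiation genes that usually accompany these keratins, 11 of 30 tested genes were called higher and 13 lower in PKP4-KO against WT over the 4 conditions (all tested genes 70.0% called), and without TMM factors 6 were higher and 17 lower. The median was -0.11. By condition, the share of all tested genes called was 42.8% at 24 h HCM, 40.2% at 24 h LCM, and after 72 h 51.8% in HCM and 45.1% in LCM. At 24 h, 0 differentiation genes were called higher and 23 lower in HCM (median -2.18), and 2 higher and 15 lower in LCM (median -0.65). At 72 h, 14 were higher and 7 lower in HCM (median 0.73; 11 and 10 without TMM factors), and 14 higher and 5 lower in LCM (median 0.94; 12 and 8 without TMM factors). Over the 4 conditions, Flg, which encodes profilaggrin of the granular layer, rose by 3.85 (adjusted p = 3.38e-08, edgeR) from a mean of 0.177 CPM to 3.56, and Calm4, a calmodulin-like gene of differentiating keratinocytes, by 1.79 (adjusted p = 2.8e-09). Ivl, the gene of the cornified envelope protein involucrin, had -2.17 (adjusted p = 6.92e-14), Cdsn, that of corneodesmosin, -2.17 (adjusted p = 5.14e-17), and Dsg1a, a desmoglein gene with a close copy, -2.52 (adjusted p = 3.62e-12). In Rescue against WT, 20 of 30 tested genes were called higher and 1 lower (all tested genes 49.2% called), with a median of 0.82 beside -0.01 over all tested genes. Of the single conditions, that at 72 h HCM had 6 higher and 5 lower (median -0.14) and that at 72 h LCM 23 higher and 1 lower (median 1.81). The shares of all tested genes called there were 36.2% and 32.4%.
In response to HCM, 24 of the 30 differentiation genes tested were called higher in WT at 24 h and 0 lower, and at 72 h 22 were higher and 2 lower. In PKP4-KO, 4 were higher and 1 was lower at 24 h (3 and 0 without TMM factors), and 27 were higher and 0 lower at 72 h. In Rescue, 21 were higher and 0 lower at 24 h, and 8 were higher and 6 lower at 72 h. The shares of all tested genes called were 14.2% and 21.4% in WT, 2.83% and 32.6% in PKP4-KO, at 24 h and 72 h. For Rescue, they were 12% and 24.9%. Without TMM factors, the differentiation genes called higher were 18 in WT at 24 h and 19 at 72 h, and 21 in PKP4-KO at 72 h. In Rescue they were then 20 at 24 h and 10 at 72 h. The 4 genes called higher in PKP4-KO at 24 h included Dsg1a (2.95), Serpinb2 (2.20), a serine protease inhibitor, and Dsg1b (2.06), and Ivl was called lower (-1.33). In Rescue at 72 h, where Krt13 was lower in HCM, the 6 genes called lower included the transglutaminase genes Tgm3 (-3.06) and Tgm1 (-2.37) and the lipoxygenase gene Alox12b (-2.63). The list of differentiation genes was chosen with results of these libraries known, so its calls are no independent support.
Of the keratinocyte transcription factors and Notch genes, 15 of 36 tested genes were called higher and 12 lower in PKP4-KO against WT (all tested genes 70.0% called), and without TMM factors 9 were higher and 15 lower. The homeobox genes Dlx3 (5.43, from 0.115 to 3.43 CPM) and Barx2 (5.02) and the AP-2 gene Tfap2c (4.23) had the highest log2 fold changes, and the receptor gene Notch3 (-2.44), Prdm1 (-1.59) and Hopx (-1.30) the lowest (adjusted p = 4.6e-08 or lower for each, edgeR). In Rescue against WT, 20 of 36 tested genes were called higher and 6 lower (19 and 2 without TMM factors, and all tested genes 49.2% called), led by Tfap2c (3.36) and Gata3 (3.03). Of the desmosome genes, 0 of 11 tested genes were called higher and 9 lower in PKP4-KO against WT, with the desmocollin genes Dsc2 at -4.14 and Dsc3 at -1.73 (adjusted p = 2.43e-15 and 8.24e-09, edgeR), and 2 of 11 tested genes were called higher and 6 lower in Rescue against WT (2 and 3 without TMM factors).
Over the means of the 12 groups, the log2 levels of Krt1 and Krt10 had a Pearson correlation of 0.884, those of Krt80 and Krt13 one of 0.852 and those of Krt4 and Krt13 one of 0.660, while Krt1 and Krt4 had 0.0579. These values describe 12 groups that share media and times and carry no test. Among 12215 genes averaging 1 CPM or more, the patterns closest to Krt1 were those of Eapp (0.983), Tpt1 (0.982) and Gm14494 (0.980), and those closest to Krt10 were of Fgfr1op2 (0.974), Tmem45a (0.958) and Mff (0.941). Krt80 was matched most closely by Crb3 (0.978), Hopx (0.978) and X6430548M08Rik (0.978), Krt4 by Psors1c2 (0.957), Plk3 (0.956) and Sprr2e (0.951), and Krt13 by Dhrs1 (0.942), Cblc (0.939) and X2610528J11Rik (0.939).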

How the data were processed

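The series holds RNA-seq of poly(A) RNA from murine keratinocytes, with 3 libraries in each of 12 groups. The authors aligned strand-specific paired-end reads with HISAT2 2.1.0 to mm39 plus the transgene, dropped secondary alignments (SAMtools 1.10) and deposited raw counts per gene from featureCounts 2.0.0 in 1 table. Whether the counting used strand is not given in the sources used here. Groups came from the labels. The members and gene lists were chosen with earlier results of these data known.
The deposited counts were tested with edgeR 4.0.16 in R 4.3.3. Genes were filtered by filterByExpr (minimum count 10), scaled with TMM factors and fitted with 1 mean for each group by the quasi-likelihood method. P-values were adjusted by the Benjamini-Hochberg method over all 15114 tested genes at a threshold of 0.05. CPM, and CPM per kilobase of the gene length in the table, were computed from the counts. Calcium and time responses of the keratins were described without a test, since the genes were chosen on them. For the differentiation genes and for all tested genes, calcium responses were called by the same test. Of other lists, the genes named were up to 3 called genes with the highest or lowest log2 fold changes among those with a mean of at least 1 CPM, and Ivl and Krt15 fall under that rule. Patterns were compared by Pearson correlation of log2(CPM + 2) over group means. The fit was tested on simulated data. Promoters were read from GRCm39 with the GENCODE annotation for 6 of the 7 genes, and that of Krt1 is not reported here.
Alternatives were DESeq2 1.42.0, library sizes without TMM factors, no filter, at least 10 counts in every library, a fit of only the groups compared, a replicate block, and leaving out each library in turn. A mean without 72 h HCM was added after seeing the data. The floor of 3 counts covers counting error only, and ± values are SDs over libraries or come from the edgeR fit.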

Additional observations from a re-analysis of the deposited data

Results flagged for a closer look

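Several responses of single keratins had opposite signs in 2 settings, with all libraries of one group moving one way and all of the other the opposite way. None of these differences was itself tested, so each is given as a value. All are differences of log2 fold changes.
For PKP4-KO against WT, the response of Krt4 was lower in HCM than in LCM by a difference of -4.35 at 24 h and -2.93 at 72 h. That of Krt13 at 72 h differed by -2.18 between HCM and LCM, and between 24 h and 72 h in LCM by -2.08. For Krt80, the difference between 24 h and 72 h in LCM was -2.14.
For Rescue against WT, Krt13 differed by -4.58 between HCM and LCM at 72 h. Krt1 differed by 2.49 between 24 h and 72 h in HCM and by 4.59 in LCM, and the latter includes replicate 3 of Rescue at 24 h LCM, which stood apart. Without it, the log2 fold change of Krt1 at 24 h LCM was 1.76 rather than 3.57. Krt80 differed by -1.36 between 24 h and 72 h in HCM.
The calcium response of Krt13 was higher in WT than in Rescue at 72 h by 4.58, and higher in PKP4-KO than in Rescue by 2.40. In Rescue it was higher at 24 h than at 72 h by 1.91.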

How the results depend on the processing

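Of the log2 fold changes of the 5 keratins, most kept their sign and their side of the threshold, and exceptions are given here or beside the result in the report. Their cause was not tested. Without TMM factors, the median of all tested genes shifted by -0.33 for PKP4-KO against WT over the 4 conditions, by -0.76 at 72 h HCM and by 0.40 for Rescue against WT at 72 h HCM. Under that setting, Krt4 in PKP4-KO against WT over the 4 conditions was -0.081, Krt80 at 72 h HCM was -0.25 for the same genotypes, Krt10 in Rescue against WT was 0.021 over the 4 conditions and 0.047 at 72 h HCM, and the time response of Krt4 in Rescue in HCM was 0.028. Between PKP4-KO and WT at 72 h LCM, 3 keratins were called without TMM factors, in place of 5, and the desmosome genes called in Rescue against WT 5, in place of 8. Averaged without 72 h HCM, Krt10 in Rescue against WT was 0.055, Krt13 was 0.85 and Krt4 in PKP4-KO against WT was 0.59 (called).
Leaving out 1 library at a time gave -0.29 to 0.040 for Krt10 in Rescue against WT over the 4 conditions, -0.42 to 0.060 for Krt13 at 24 h HCM (0.060 without replicate 3 of Rescue) and -0.41 to 0.90 for Krt10 at 24 h LCM (-0.41 without replicate 3 of Rescue). The calcium response of Krt4 in PKP4-KO at 24 h ranged from -0.50 to 0.22. Time responses in Rescue in HCM ranged from -0.15 to 0.20 for Krt1 and from -0.29 to 0.16 for Krt4, and in LCM from -1.77 to 0.49 for Krt1 and from -0.50 to 0.80 for Krt10. The highest values in LCM came without replicate 3 of Rescue at 24 h, when 5 keratins in place of 3 were higher at 72 h without overlap (range 3 to 5). The keratins called in Rescue against WT at 24 h HCM ranged from 1 to 3, with 1 without replicate 1 of WT.
Same-numbered libraries did not deviate together throughout, since correlations between groups ranged from -0.852 to 0.893 and all exceeded 0.1 in 12 of 66 pairs of groups, so the numbers were not taken to pair the libraries. With a replicate block, Krt1 in Rescue against WT at 24 h HCM was 1.34 (adjusted p = 0.0539, edgeR), the only call on a single keratin that the block changed. DESeq2 called 799 genes and edgeR 428 for calcium in PKP4-KO at 24 h, against 237 by edgeR without TMM factors, and 4924 against 7929 without them at 72 h. Depth limited Krt2 and Krt77, which were too low to test.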
